A study of Mus musculus with 3 samples.

Results

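FOG2 peaks were described at the genes of 7 cardiac transcription factors, Nkx2-5, Hand1, Hand2, Isl1, Meis1, Meis2 and Tead1, in embryonic mouse heart ventricle. A peak was counted for a gene when its summit, the point of highest signal, had that gene as its nearest protein-coding gene body within 100 kb. By this rule 19 of the 6166 FOG2 peaks (0.308%) belonged to the 7 genes. Of the 7 genes, 5 had a summit and 2, Hand1 and Isl1, had none, while 13.4% of the 21883 protein-coding genes placed on mm10 had one. At the shares among genes with a similarly long stretch of genome nearest to them, 2.57 of the 7 would have one. Meis1 had 7 summits, Hand2 had 5, Nkx2-5 had 3, and Meis2 and Tead1 had 2 each.

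FOG2, encoded by Zfpm2, is a zinc finger cofactor that binds GATA transcription factors. The FOG2 pulldown consisted of 2 libraries, each from about 20 ventricles at E12.5 (days of gestation), and 1 input library was the control. By the extraction protocol all embryos were Fog2flbio/flbio;Rosa26BirA/BirA, so that the bacterial ligase BirA, made from the Rosa26 locus, biotinylated the tagged FOG2, which was caught on streptavidin beads. The sample labels instead give the genotype as WT and the antibody as FOG2. The name of the deposited list holds the word FLAG, which neither the protocol nor the labels spell out. Whether the letters fl in the allele name stand for it is not stated, so the name need not conflict with the protocol. The protocol was followed here. No pulldown from ventricles without tagged FOG2 was used. The pulldown libraries had been pooled before peaks were called, so every value below is one pooled value with no spread between replicates, and no test between libraries could be made. Expression was not measured, and the tissue label could not be checked against marker genes.

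Nkx2-5 encodes a homeodomain protein that acts with GATA4 and TBX5 in cardiac muscle genes. HAND1 and HAND2 are basic helix-loop-helix proteins, with Hand1 known for the left ventricle and Hand2 for the right ventricle and outflow tract of the mouse. ISL1 is a LIM homeodomain protein of the progenitors of the second heart field. MEIS1 and MEIS2 are homeodomain proteins of the TALE class that bind DNA with PBX partners. TEAD1 binds DNA through its TEA domain and brings the coactivators YAP and TAZ to genes of growth and muscle contraction.

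Reference sequence was at hand for promoter windows, which run from 250 bases before to 50 bases after a gene's start, for 5 of the 7 genes (RefSeq, GRCm38.p6). Hand1 and Tead1 were not among them. The sequences below are shown because FOG2 acts through GATA factors, and capitals mark the GATA letters on either strand, that is GATA with A or T before it and A or G after it. The Meis1 window is the one of the 5 with a FOG2 peak directly beside it, those of Hand2 and Isl1 are the ones of the 5 that hold GATA letters, and the last is the stretch of a FOG2 peak 84.1 kb from Meis2 that lies in the window of the long noncoding RNA gene Gm52524. All are on the strand of the gene named, which is the minus strand except for Hand2.
Meis1 (chr11:19018920-19019219): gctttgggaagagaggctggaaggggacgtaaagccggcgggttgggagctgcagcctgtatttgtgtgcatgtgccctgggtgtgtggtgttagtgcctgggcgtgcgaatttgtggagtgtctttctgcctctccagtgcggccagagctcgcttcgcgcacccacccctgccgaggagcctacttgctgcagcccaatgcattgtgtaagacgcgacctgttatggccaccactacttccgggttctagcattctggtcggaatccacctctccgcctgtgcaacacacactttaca
Hand2 (chr8:57320733-57321032): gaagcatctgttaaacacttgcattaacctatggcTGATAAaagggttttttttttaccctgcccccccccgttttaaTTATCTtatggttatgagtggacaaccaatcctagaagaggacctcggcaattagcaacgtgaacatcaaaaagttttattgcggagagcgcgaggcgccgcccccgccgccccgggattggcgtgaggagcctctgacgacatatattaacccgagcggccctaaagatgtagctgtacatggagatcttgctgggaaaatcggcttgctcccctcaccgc
Isl1 (chr13:116309639-116309938): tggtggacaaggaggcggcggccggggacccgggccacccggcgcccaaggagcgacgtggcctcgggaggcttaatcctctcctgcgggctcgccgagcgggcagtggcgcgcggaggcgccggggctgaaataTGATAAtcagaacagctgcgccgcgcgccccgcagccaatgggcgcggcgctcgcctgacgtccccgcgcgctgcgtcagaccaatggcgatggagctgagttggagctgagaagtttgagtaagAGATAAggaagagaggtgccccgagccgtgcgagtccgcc
Gm52524 peak (chr2:115777044-115777156): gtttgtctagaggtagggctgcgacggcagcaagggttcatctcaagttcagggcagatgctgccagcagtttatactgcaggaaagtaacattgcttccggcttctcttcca

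The Meis1 promoter window lay beside a FOG2 peak and held no GATA letters. The sequence under that peak was not at hand, so whether it holds them is unknown. With 10 fragments the peak was 4.96-fold, and 14.1% of all peaks were lower in fold. The peak spanned 19018715 to 19018906 on chromosome 11, ended 13 bases short of the window, and had its summit 165 bases past the listed start site, inside the gene. It was the only one of the 17 summits at genes with a listed start that lay within 1 kb of it. The Hand2 window held the letters at 215 and 172 bases before the start, and the nearest peak lay 6.91 kb away. The Isl1 window held them at 115 bases before and 10 bases after the start, and the nearest peak lay 122 kb away. The windows of Nkx2-5 and Meis2 held none. The 113 bases of peak sequence in the Gm52524 window held none, although the summit lies in them. Among all 32851 promoter windows 29.8% held GATA letters, as did 43 of the 74 windows with a FOG2 summit (58.1%). The TEAD letters GGAATG occurred in none of the 5 windows. The NKX letters CACTTA occurred once, in the Meis2 window, and the MEIS letters TGACAG once, in the Nkx2-5 window. Of all windows, 14.7%, 9.20% and 19.2% held the TEAD, NKX and MEIS letters in that order. Among the 74 windows with a FOG2 summit these shares were 20.3%, 8.11% and 27.0%, so those of TEAD and MEIS were higher there too.

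**Figure D1:**
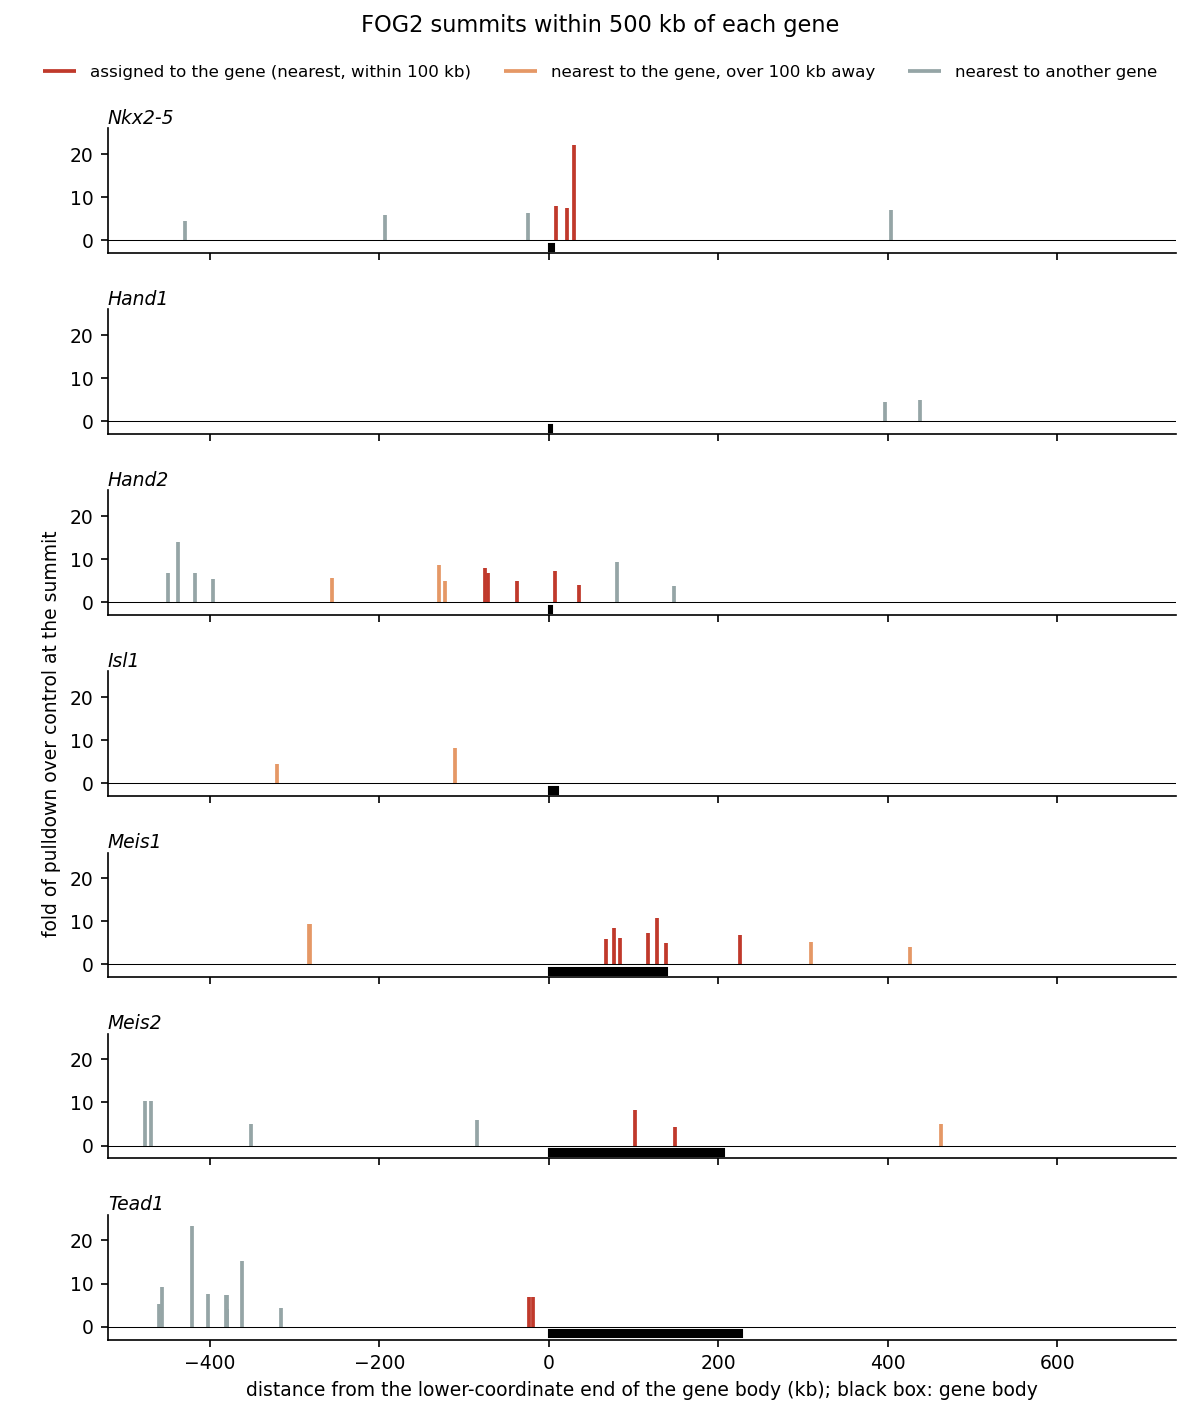
FOG2 summits within 500 kb of each of the 7 genes, with the fold of pulldown over control on the y axis and the distance in kb from the lower-coordinate end of the gene body on the x axis. Red lines are summits assigned to the gene, orange lines are nearest to it but over 100 kb away, grey lines are nearest to another gene, and the black box is the gene body. The summits of Nkx2-5, Hand2 and Tead1 lie outside the gene bodies, and those of Meis2 and 6 of the 7 of Meis1 lie inside.

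Nkx2-5 had the strongest FOG2 peak of the 7 genes, and all 3 of its summits lay upstream of the gene. Nkx2-5 (chromosome 17, 26838664 to 26844988, minus strand) is 6.33 kb long, and its summits lay 2.35, 15.6 and 23.9 kb beyond the end of the gene body, or 5.78, 19.1 and 27.4 kb from the listed start site. The farthest, at 26868789 to 26869232, was 22.1-fold over control, with 44 pulldown fragments at the summit (exact 95% Poisson interval 32.0 to 59.1). These intervals cover counting error only. It ranked 144 of the 6166 peaks by fold. The summit nearest to the gene, at 26847209 to 26847597, was 7.84-fold (13 fragments, 6.92 to 22.2). The one between them, at 26860501 to 26860685, was 7.41-fold (12 fragments, 6.20 to 21.0). The fragment interval of the strongest summit did not overlap those of the rest, which overlapped each other.

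The 3 summits stood in a small territory. The territory of a gene is the stretch of genome nearer to it than to any other protein-coding gene, within 100 kb, and that of Nkx2-5 was 66 kb. At the genome-wide density of 2.46 summits per Mb of territory it would hold 0.163 summits. Of genes in the same decile of territory, 12.3% had a summit and 0.548% had 3 or more. Both of the farther summits also lay inside the long noncoding RNA gene Gm17382. A further summit, 6.22-fold, lay on the other side of Nkx2-5, 25.0 kb from it, and was nearest to Bnip1.

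Hand2 had 5 summits (exact 95% Poisson interval 1.62 to 11.7) and Hand1 had none (0 to 3.69). The intervals of the counts overlapped, but they treat summits as independent, and 2 at Hand2 lay 3.65 kb apart. The territories also differed, at 170 kb for Hand2 and 83 kb for Hand1. Hand2 (chromosome 8, 57320983 to 57324517, plus strand) is 3.54 kb long and had 5 summits, all outside the gene body. Upstream of it, 3 summits lay 75.4, 71.8 and 37.6 kb away at 8.02-, 6.77- and 4.96-fold, with 12, 14 and 13 fragments. Downstream, 2 lay 3.50 and 32.4 kb away at 7.21- and 4.06-fold, with 13 and 8 fragments. The strongest spanned 57245510 to 57245735 (12 fragments, 6.20 to 21.0), and the intervals of all 5 overlapped. At that density the territory of 170 kb would hold 0.419. In the same decile of territory 28.1% had a summit and 0.411% had 5 or more.

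None of the 5 lay in the noncoding genes beside Hand2. Hand2os1, the divergent noncoding RNA gene upstream of Hand2, had its closest upstream summit 20.9 kb away. The summit 32.4 kb downstream of Hand2 lay 2.37 kb from the noncoding gene Hdnr. Hand2 sits in a wide interval, 727 kb from Fbxo8 on one side and 131 kb from Scrg1 on the other. A summit of 9.32-fold 76.9 kb downstream, higher in fold than any assigned to Hand2, was nearer to Scrg1. Beyond the limit of 100 kb, 3 more summits had Hand2 as nearest gene, at 123 kb (4.96-fold), 130 kb (8.70-fold) and 256 kb (5.67-fold).

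Hand1 (chromosome 11, 57828713 to 57832147) had no summit, and the nearest on its chromosome lay 394 kb away, at 4.51-fold with 9 fragments, next to Irgm2. Its territory of 83 kb would hold 0.204 summits, and 12.3% of genes in the same decile of territory had one. Its neighbours are Sap30l, 18.1 kb away, and Larp1, 141 kb away. The lowest fold in the list was 3.01 and the lowest number of fragments 5, so weaker binding would not be listed.

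Isl1 (chromosome 13, 116298270 to 116309688, minus strand) also had no summit within 100 kb. The gene lies in an interval with Itga1 1196 kb away on one side and Parp8 541 kb away on the other. Its territory of 211 kb would hold 0.520 summits, and 51.0% of genes in the same decile of territory had one. Just beyond the limit, 111 kb downstream, lay a summit of 8.21-fold with 14 fragments (7.65 to 23.5) at 116187195 to 116187466, for which Isl1 was the nearest gene. Another of 4.41-fold with 6 fragments lay 321 kb away. The farthest summit inside the limit among the 7 genes, at Meis1, lay 86.3 kb from its gene and was 6.79-fold, so the count of 0 at Isl1 rests on the limit of 100 kb.

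Meis1 had the most summits of the 7 genes, and 6 of its 7 lay inside the gene. Meis1 (chromosome 11, 18880428 to 19019651, minus strand) is 139 kb long. From the listed start site inwards, the summits lay at 0.165, 10.4, 21.0, 54.4, 61.6 and 71.4 kb, at 4.96-, 10.8-, 7.25-, 6.25-, 8.55- and 5.97-fold. None lay in the 67.1 kb at the far end of the gene. The strongest, at 19008410 to 19008740, rested on 21 fragments (13.0 to 32.1), and the other 5 rested on 10 to 14. The peak of the summit 61.6 kb inside was the widest of the 19, at 570 bp. The summits 10.4 and 21.0 kb inside also lay in the noncoding gene Gm16141. The remaining summit lay 86.3 kb upstream of the gene body, at 6.79-fold with 10 fragments.

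The territory of Meis1, 339 kb, would hold 0.835 summits. In the same decile of territory 1.51% had 7 or more. Over 100 kb away, 4 more summits had Meis1 as nearest gene. A pair 282 and 283 kb downstream stood at 9.30- and 9.28-fold, both higher than 6 of the 7 assigned summits. On the upstream side lay 170 kb (5.24-fold) and 287 kb (4.06-fold).

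Meis2 had 2 summits against 7 at Meis1, in a territory of similar size. Meis2 (chromosome 2, 115861264 to 116067537, minus strand) is 206 kb long, and its territory of 347 kb would hold 0.854 summits. Both summits lay inside the gene, 102 and 54.0 kb from the listed start site. The one at 115962783 to 115963242 was 8.14-fold with 22 fragments (13.8 to 33.3). The one at 116010535 to 116010704 was 4.25-fold with 11 fragments (5.49 to 19.7) and among the lowest 3.41% of all peaks by fold. The exact 95% Poisson intervals of the summit counts, 2.81 to 14.4 for Meis1 and 0.242 to 7.23 for Meis2, overlapped. They too treat summits as independent. Of genes in the same decile of territory, 26.3% had 2 or more. A summit of 5.90-fold 84.1 kb from Meis2 lay inside BC052040, and its sequence is the one given above.

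Tead1 had 2 summits, both outside the gene on its lower-coordinate side. Tead1 (chromosome 7, 112679356 to 112906784) is 227 kb long, and no summit lay inside it. The summits lay 18.8 and 23.0 kb from the gene body and 4.14 kb from each other. The nearer, at 112660394 to 112660614, was 6.82-fold with 15 fragments (8.40 to 24.7). The farther, at 112656161 to 112656569, was 6.93-fold with 27 fragments (17.8 to 39.3), and its control level of 3.04 fragments was the highest of the 19. With 27 fragments it had the next largest number after the strongest Nkx2-5 summit, yet its fold was near the middle of the list. The territory of 295 kb would hold 0.726 summits. In the same decile of territory 51.0% of genes had a summit and 26.3% had 2 or more. The noncoding gene Gm40451, between the summits and Tead1, lay 7.95 kb from the nearer one.

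**Figure D2:**
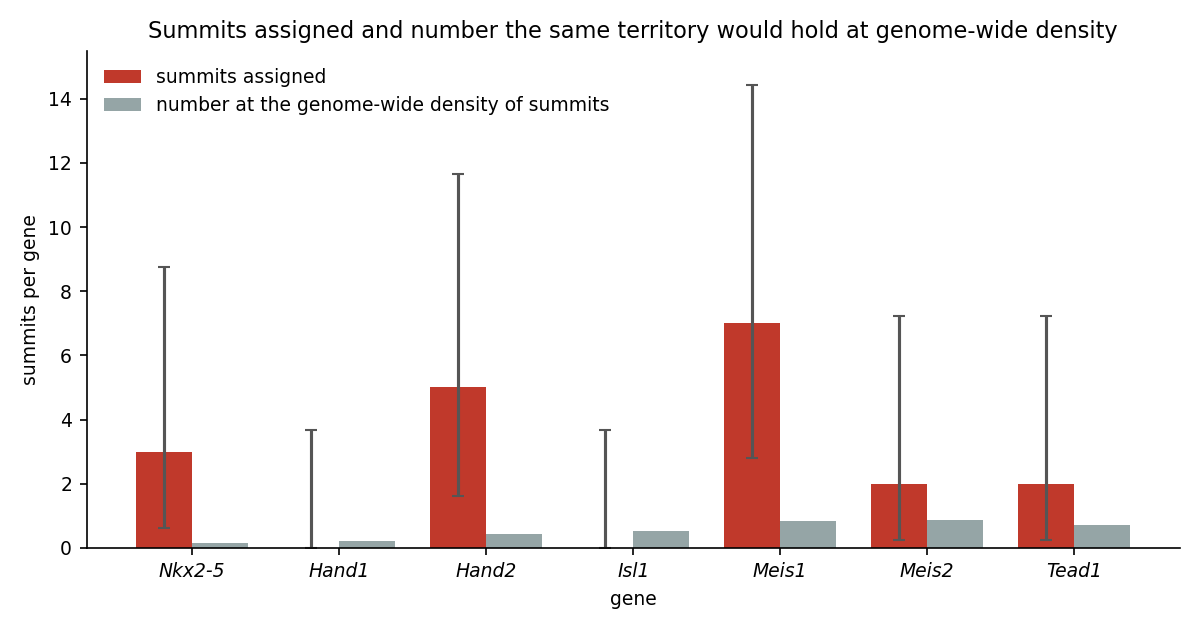
Number of FOG2 summits assigned to each gene (red) and the number its territory would hold at the genome-wide density (grey). The exact 95% Poisson intervals on the red bars cover counting error only and treat summits as independent. Assigned summits exceed the density-based number at 5 genes, and Hand1 and Isl1 have none. The density-based numbers run from 0.163 to 0.854, so any gene with a summit exceeds its own.

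Across the 7 genes, 19 summits stood where the summed territories of 1511 kb would hold 3.72 at the genome-wide density. Of the 7 genes, 3 had 3 or more summits, 2 had 5 or more and 1 had 7 or more, against 1.91%, 0.452% and 0.174% of all protein-coding genes. All 5 genes with a summit had at least 2, as had 31.8% of the 2923 protein-coding genes with a summit. That share is not matched for territory. In the decile of Meis1, Meis2 and Tead1, 51.0% of genes had a summit and 26.3% had 2 or more. Meis2 had 1 summit under each stricter peak limit, and Hand2 and Tead1 had 1 each within 20 kb. The genes were chosen with earlier results of these data known, so these shares are given as a description with no test.

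The 19 summits were close to the rest of the list in fold. Their median fold was 6.93, with a range of 4.06 to 22.1, and that of the other 6147 peaks was 6.39. Of the 19, 2 reached 10-fold (10.5%), against 16.9% of all peaks. Of the 19, 8 lay inside a gene body (42.1%), against 45.8% of all summits. The median width was 265 bp in the 19 and 251 bp in the other peaks.

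**Figure D3:**
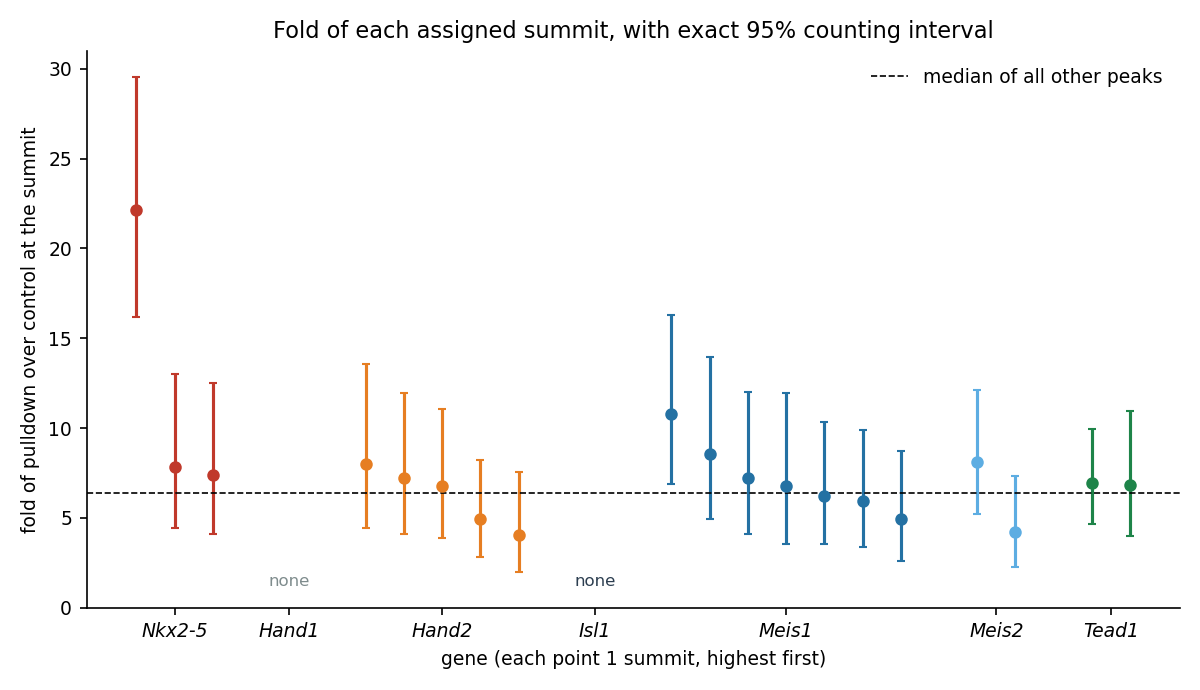
Fold of pulldown over control at each of the 19 summits, grouped by gene with the highest first, with exact 95% counting intervals from the recovered fragments. The dashed line is the median of all other peaks, 6.39, and the intervals of the strongest Nkx2-5 and the strongest Meis1 summit are the ones that lie wholly above it.

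The summits were more closely spaced than those of the whole list. Of the 19, 9 had another summit within 10 kb (47.4%), against 18.6% of all summits. Among summits of other genes with at least 2, the share was 30.9%. The 9 were 2 at Nkx2-5, 2 at Hand2, 3 at Meis1 and both at Tead1.

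Few of the 19 rested on very low counts. Of them 3 had 10 or fewer pulldown fragments (15.8%), against 39.4% of all peaks. Their median was 13 fragments with a range of 8 to 44, and that of the other peaks was 12. Their control level was also higher, with a median of 1.22 fragments against 0.828 in the other peaks and a range of 0.621 to 3.04. A higher control level needs more pulldown fragments for the same fold, and its part in the counts was not tested.

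**Figure D4:**
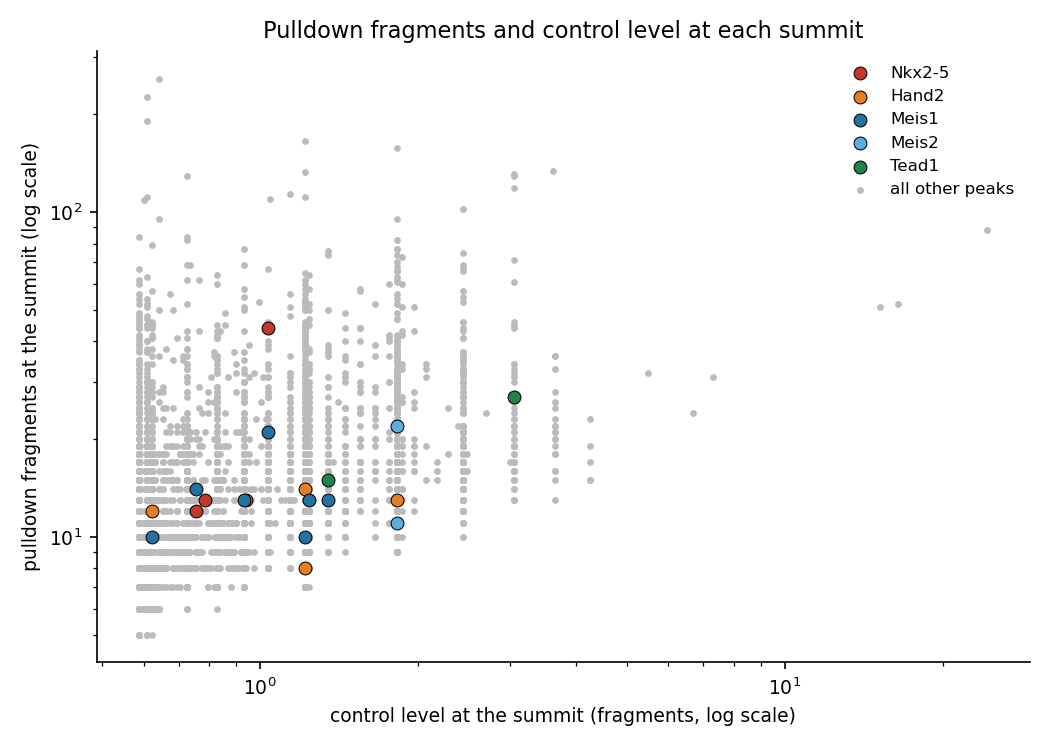
Pulldown fragments against the control level at each summit, both on log scales, for the 19 summits (coloured by gene) and all other peaks (grey). The strongest Nkx2-5 summit has 44 fragments over a control level of 1.03, and the farther Tead1 summit has 27 over 3.04.

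By the fold of their highest summits, the genes stood in the order Nkx2-5 (22.1), Meis1 (10.8), Meis2 (8.14), Hand2 (8.02) and Tead1 (6.93). Nkx2-5 had 44 fragments at its highest summit and Meis1 had 21, at the same control level of 1.03, a ratio of 2.1 (exact 95% binomial interval 1.22 to 3.71). Meis1 and Meis2, with 21 and 22, had a ratio of 0.955 (0.499 to 1.82). Meis2 and Hand2, with 22 and 12, had a ratio of 1.83 (0.869 to 4.06). Hand2 and Tead1, with 12 and 27, had a ratio of 0.444 (0.205 to 0.907). The fold was lower at Tead1, and the control levels at these summits were 0.621 at Hand2 and 3.04 at Tead1. Both ratios with Hand2 rest on a summit where 9 fragments over a control level of 0.247 also came within the tolerance, and 12 was the closer match. Each summit was the highest of its gene and each pair was set by the order. These intervals are thus a description of counting error in 1 pooled list, and no order of the genes can be told from them.

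Genes that work with these factors were looked at in the same way, and are read against the share with a summit, which was 13.4% over all protein-coding genes and 51.0% in the decile of the largest territories. None of 8 paralogues (Nkx2-1, Nkx2-3, Nkx2-6, Isl2, Meis3, Tead2, Tead3 and Tead4) had a summit, and their territories would hold 1.22. Of the TALE genes Pbx2, Pbx3, Pbx4, Pknox1 and Pknox2, only Pknox2 had a summit, 1 in the gene body at 3.61-fold with 7 fragments (2.81 to 14.4).

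Of 6 TEAD coactivator genes, 3 had a summit, where the shares in their deciles of territory add up to 1.24 genes. They had 4 summits, and their territories would hold 1.89. Yap1 had 1 in its gene body, of 20.9-fold (37 fragments, 26.1 to 51.0), higher in fold than either Tead1 summit. Vgll4 had 2 (strongest 8.42-fold), and Wwtr1, which encodes TAZ, had 1 at 6.74-fold. Vgll1, Vgll2 and Vgll3 had none.

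Of 5 genes for basic helix-loop-helix partners or relatives of HAND, 3 had a summit, at Tcf4 (2, strongest 8.10-fold), Twist1 (2, strongest 4.94-fold) and Tcf12 (1, 4.93-fold). The shares in their deciles add up to 1.47 genes, and the territories, 544 kb of them at Tcf4, would hold 2.99 summits against the 5 seen. Of 5 genes for LIM partners or relatives of ISL1, 2 had a summit, where the shares in their deciles add up to 1.39 genes. They had 4 summits, and their territories, 564 kb of them at Ldb2, would hold 2.46. Ldb2, which encodes a LIM-domain-binding cofactor, had 3 (strongest 11.6-fold), and Lmo4 had 1 at 6.38-fold. The closely related Ldb1 had none.

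Of 20 other core cardiac transcription factor genes, 13 had a summit (65.0%), with 46 summits where their territories would hold 8.58, and the shares in their deciles add up to 5.57 genes. For the 7 genes the share was 71.4%, and the shares in their deciles add up to 2.57 genes. Fold was highest at Nr2f2 (20.5), Tbx3 (19.7), Myocd (17.3) and Tbx18 (15.8), all below the strongest Nkx2-5 summit at 22.1. The intervals on fragments of these summits, such as 21.9 to 45.2 at Nr2f2 and 26.1 to 51.0 at Tbx3, overlapped that of Nkx2-5. Which gene a summit acts on was not measured. With genes of every biotype in the assignment, 8 summits were left at the 7 genes, 4 at Meis1, 2 at Meis2, 1 each at Hand2 and Nkx2-5 and none at Tead1.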

How the data were processed

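FOG2-bound chromatin was measured by biotin pulldown and sequencing. The ventricles were fixed in 1% formaldehyde for 10 minutes and sheared to 300 to 800 bp, per the labels' protocols. Bowtie2 2.3.2, SAMtools 1.5, Picard, MACS2 2.1.1 are the tools in the submitters' processing notes, which also give mm10 as the build, and the settings used are not stated in the sources at hand. The single file is the peak list the authors deposited for the pooled pulldown. The fold the authors deposited is pulldown over control at each summit, as a ratio, and the deposited −log10 p and −log10 q are the peak caller's.

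Gene bodies came from RefSeq (GRCm38.p6). Pulldown fragments and control level at each summit were solved from the deposited fold and −log10 p, as a Poisson tail with 1 added on both sides of the fold. A whole number came within 0.001 of the deposited −log10 p in 100% of peaks. In 83 peaks another whole number did too, among them the Hand2 summit of highest fold, and the closest was used. The depth of each library is unknown from the list. Intervals are exact at 95%. Territories were measured on a 1 kb grid. The recovery, the assignment and the binomial test were tested on simulated data (Python 3.11.15, SciPy 1.17.1).

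The genes, lists and rule for named genes (all 7, their neighbours, up to 4 per list) were chosen with earlier results of these data known. Some listed genes are not reported here. The p-values of the planned binomial tests between highest summits are not given, because the pairs were set by the values compared. Other settings tried were limits of 20, 50 and 500 kb, gene starts, any biotype, every summit within 100 kb, stricter peaks and merged summits.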

Additional observations from a re-analysis of the deposited data

How the results depend on the processing

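The number of summits at the 7 genes followed the rule of assignment. It was 12 within 20 kb of gene bodies, 29 within 500 kb and 8 with genes of any biotype, against 19 as reported, and it stayed within 1.5 times under the other 7 settings. The number of genes with a summit stayed within 1.5 times under all 10. The median fold stayed inside 5.97 to 8.02 in the 4 settings run. The fold at Nkx2-5 was 7.84 within 20 kb and with any biotype, since its strongest summit was then left out. The count at Hand2 moved over 1.5 times in 7 of the 10 settings. It was 1 within 20 kb and with any biotype, 3 within 50 kb and under each of the 3 stricter peak limits, and 8 within 500 kb, against 5 as reported. Meis1 had 4 summits with any biotype and in the stronger 50% of peaks, and 11 within 500 kb, against 7. The count at Meis2 moved over 1.5 times in 4 of the 10 settings. It was 1 under each stricter peak limit and by gene starts, against 2. Tead1 had 1 within 20 kb and none with any biotype, against 2. Within 500 kb Isl1 gained 2 summits. Between highest summits, Meis1 exceeded Meis2 by 3.85 in −log10 q, although it had 1 fragment fewer. Dividing fragments by the control level, chosen after the data were seen, also turned the order by fragments. Differences in that ratio were 8.25 for Meis1 minus Meis2, -7.28 for Meis2 minus Hand2 and 10.5 for Hand2 minus Tead1. By this ratio Hand2 stood above Meis2, the reverse of their order by fold. Nkx2-5 stayed above Meis1 both in −log10 q and in this ratio. In −log10 q Tead1 (13.22) stood above Meis2 (13.16) and Hand2 (8.93), although its fold was lower than theirs. No paired analysis was possible because the replicates were pooled before deposit, and for the same reason no library could be left out.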

Other observations

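Strong FOG2 summits also lay within 500 kb of Tead1 and Hand2 but nearest to other genes. On the lower-coordinate side of Tead1, 8 summits were nearest to Mical2, 362 to 459 kb from Tead1, and the strongest of them was 23.5-fold with 51 fragments. In the wide interval upstream of Hand2, 4 summits 396 to 449 kb from it were nearest to Fbxo8, each over 278 kb from that gene, and the strongest was 14.0-fold with 30 fragments. These summits belong to none of the counts at the 7 genes.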
